A study of Mus musculus with 6 samples.

Results

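miR-21 was followed through small RNA libraries of cultured mouse oligodendrocytes, the glial cells that make myelin, and of the extracellular vesicles (EVs) collected from those cultures. The members were chosen by name: the rows miR-21a-5p and miR-21a-3p, the 2 mature strands of the mouse miR-21a hairpin, out of 1906 mature miRNA rows in each deposited table. Per the labels, all 6 samples came from primary oligodendrocytes of C57BL/6N mice at embryonic day 14, grown in Sato medium with 1% horse serum. The cultures were washed, and vesicles were gathered over 24 h in Sato medium that held B27, a neural culture supplement, in place of serum. The EVs group (3 libraries, 5 to 6 days in vitro) is the pellet of a final spin at 100000 g for 2 h, and the Cells group (3 libraries, 6 days in vitro) is the whole cells. Such a pellet can also hold particles other than vesicles, and a library of medium alone was not analysed here, so a level in EVs does not give its source. Whether the replicates of a group were grown separately is not stated in the labels, and p-values here cover only the spread between these libraries, which may be technical.

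miR-21 is one of the best known mammalian miRNAs. Its 5p strand is the guide that is loaded into Argonaute, where it represses messages such as those of Pdcd4 and the Sprouty genes, and its 3p strand is the passenger that is mostly degraded. The gene is switched on by STAT3 and AP-1, and miR-21 is known to rise in tumours, in inflamed tissue and in reactive glia after injury. The mature 5p sequence is conserved across mammals, so reads of this miRNA carry no mark of the species they came from.

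The sequences of both strands are shown because every value below rests on reads assigned to them. They are from RefSeq (GRCm38.p6), 5′ to 3′, and the capitals mark the seed, bases 2 to 8, which pairs with target messages.
miR-21a-5p: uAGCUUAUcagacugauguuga
miR-21a-3p: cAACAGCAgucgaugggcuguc

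In that build the hairpin lies at chr11:86584067-86584158 on the minus strand. GENCODE M21 places it inside exon 12 of the transcript Vmp1-201, in the part annotated as untranslated region. The deposited counts were made on another build (mm9), so these positions describe the gene and not the alignments. Of the mature miRNAs in the RefSeq table, 1 other, miR-21c, shares the seed of miR-21a-5p, and 0 share that of miR-21a-3p. Only 1622 of the 1906 count rows matched a name in that table. The seeds of the remaining rows were not checked, so more rows may share either seed. The 2 rows most like miR-21a-5p by name are printed with capitals at bases that differ from it or lie beyond its end, counted from base 1 without gaps.
miR-21b: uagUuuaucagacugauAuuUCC
miR-21c: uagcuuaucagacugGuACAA

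miR-21b differs within the seed, at base 4, and miR-21c first differs at base 16. miR-21b had 1 read in EVs and 1 in cells over all libraries, and miR-21c had 0 reads, so nearly all reads in the miR-21 rows were assigned to miR-21a. A count of 0 allows up to 3 reads of miR-21c in a library, which is 4.35 to 9.56 CPM for an EV library and 14.8 to 23.6 CPM for a cell library.

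miR-21a-5p was among the most abundant miRNAs of the cells and was lower in every EV library than in any cell library. Levels are given as CPM, the reads of a row scaled to a common library total. In cells it stood at 40822 CPM in replicate 1, 24474 CPM in replicate 2 and 42108.5 CPM in replicate 3. In EVs it stood at 18863, 12130.1 and 17135 CPM in replicates 1, 2 and 3. The groups did not overlap, and replicate 2 was the lowest library of both.

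The means were 35802 ± 9831 CPM in cells and 16043 ± 3497 CPM in EVs (SD, n = 3 each). As a share of reads this was 3.58% ± 0.98 in cells and 1.60% ± 0.35 in EVs, a difference of -1.98 percentage points (exact permutation p = 0.1, two-sided, the smallest that 3 against 3 allows). Cells exceeded EVs 2.23-fold on this scale, and 2.16-, 2.02- and 2.46-fold between libraries with the same replicate number. The counts behind these values were large, at 3106 to 8521 reads in a cell library and 3806 to 11814 in an EV library. In the cell library with the fewest reads the 95% exact binomial interval of the share was 2.36% to 2.53%. The spread between replicates was therefore much wider than counting error, which is the only error these intervals cover.

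**Figure D1:**
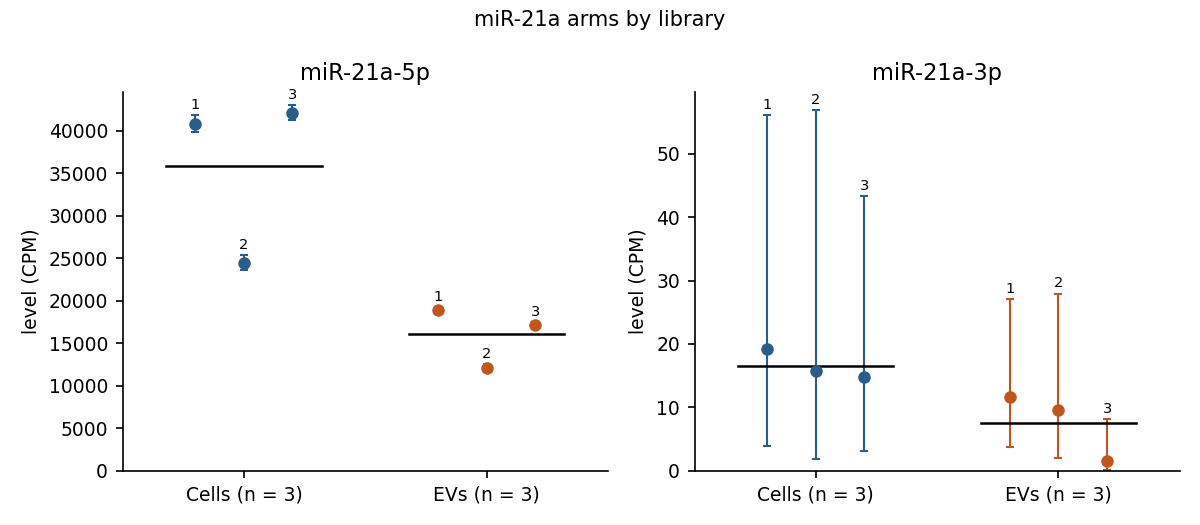
Level of each miR-21a strand in CPM (vertical axes, linear, from 0) in the 3 cell and 3 EV libraries, numbered by replicate. Points are libraries, bars are 95% exact binomial intervals of counting error and lines are group means. The EV libraries of miR-21a-5p lie at 12130.1 to 18863 CPM, below all cell libraries, while the intervals of miR-21a-3p overlap between groups.

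In the fit over all 336 miRNAs with enough reads to be tested, the EV level of miR-21a-5p fell by 1.65 in log2 units (SE 0.25, edgeR BH-adjusted p = 0.000661). This fit scales libraries by the trimmed mean of M-values (TMM), which sets the bulk of miRNAs to no change, and the fold is 3.14 on that scale. Scaled by library size only, miR-21a-5p stood at -1.16 in log2 units (SE 0.23) with a BH-adjusted edgeR p of 0.00158, where 17.9% of miRNAs were called lower. The median of all tested miRNAs was 0.06 with TMM and 0.54 with library size only, and relative to that median miR-21a-5p stood at -1.71 and -1.70.

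A fall by itself was common in these libraries: 28.9% of tested miRNAs were called lower in EVs at an adjusted p below 0.05, and 20.2% had every EV library below every cell library in CPM. In the order of log2 fold changes from the most negative, miR-21a-5p was number 40 of 336. Among the 30 most abundant miRNAs of the cells, 18 were called lower and 5 higher, and 5 had a more negative fold change than miR-21a-5p. These were let-7a-5p, let-7d-5p and let-7f-5p, members of the let-7 family that restrains growth in differentiated cells, and miR-100-5p and miR-125a-5p. miR-21a-3p did not pass the filter on low counts, so the fit tested 1 of the 2 strands.

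**Figure D2:**
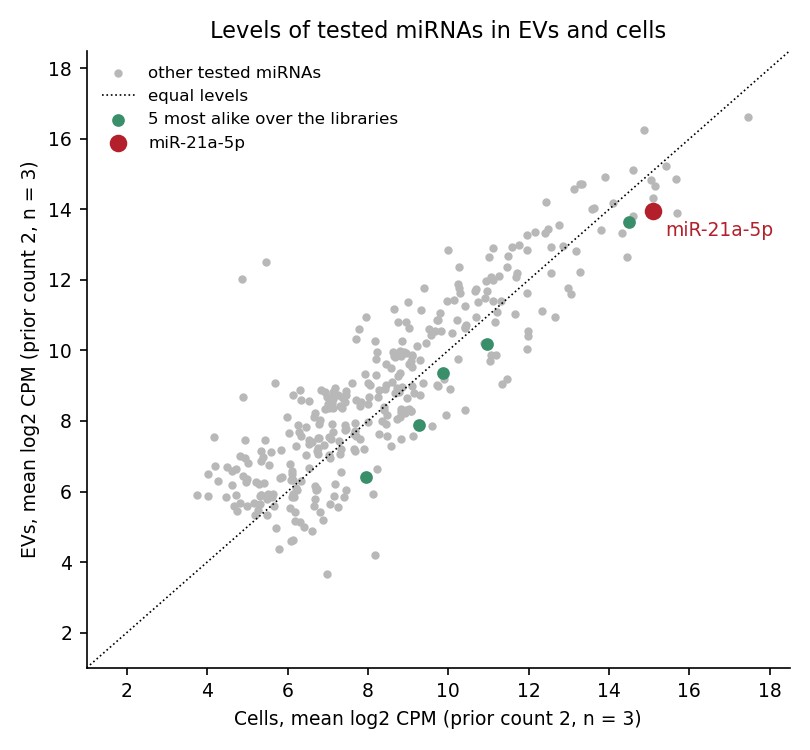
Mean log2 CPM in EVs (vertical axis) against cells (horizontal axis) for the 336 tested miRNAs, with a dotted line of equal levels. Each point is a miRNA averaged over 3 libraries a group. miR-21a-5p lies below the line among the most abundant miRNAs, and the 5 miRNAs most alike over the libraries lie below it over a wide range of levels.

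The rank of miR-21a-5p dropped with its level. Counting rows from the most abundant, it was number 7, 11 and 5 in cell replicates 1, 2 and 3. It was number 13, 21 and 17 in EV replicates 1, 2 and 3. No EV library placed it as high as any cell library did. Counting rows with the same mature sequence once gave the same ranks.

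By mean level it was number 6 in cells and number 17 in EVs. Its neighbours in cells were let-7b-5p, at 36696 ± 4056 CPM, and miR-26a-5p, a miRNA of differentiated cells, at 35403 ± 4374 CPM (SD, n = 3). Their libraries overlapped those of miR-21a-5p in level. In EVs the neighbours were miR-92a-3p, at 16420 ± 158 CPM, and let-7f-5p, at 15243 ± 2017 CPM, again with overlapping ranges. These rows were taken as the nearest in mean level, so the overlap is a description.

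The neighbours in the order of the cells did not keep their place beside it. In log2 units let-7b-5p fell by 0.97 (edgeR BH-adjusted p = 0.00312) and miR-26a-5p fell by 1.23 (edgeR BH-adjusted p = 0.000207), and by mean level both ranked above miR-21a-5p in EVs. Differences in fold change between these miRNAs were not tested. Of the neighbours in EVs, miR-92a-3p stood at a log2 fold change of -0.04 (edgeR BH-adjusted p = 0.842), or 0.42 with library size only, where it was called higher (0.0297). let-7f-5p fell by 2.26 (SE 0.16, edgeR BH-adjusted p = 1.15e-05).

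miR-21a-5p was also more variable between replicates than most tested miRNAs that reached 1000 CPM, most of which were less abundant than it. Its coefficient of variation was 27.5% in cells, where 19 of 88 tested miRNAs whose mean reached 1000 CPM varied more and the median was 15.6%. In EVs it was 21.8%, with 22 of 106 varying more and a median of 14.7%. Replicate 2 gave the lowest value in both groups. Without Cells replicate 2 the log2 fold change was -1.89, and without Cells replicate 1 it was -1.47, the widest values when any 1 library was left out.

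Ratios within a library need no scaling between libraries, and they were taken to 6 miRNAs that are often used to normalize small RNA data. The number of miR-21a-5p reads per read of miR-191-5p was 12.3, 8.01 and 11.3 in cell replicates 1, 2 and 3, and 3.60, 2.95 and 3.48 in the EV replicates. Per read of miR-93-5p it was 7.84, 4.66 and 7.05 in cells, and 1.76, 1.31 and 1.51 in EVs. Per read of miR-25-3p it was 10.5, 6.33 and 10.3 in cells, and 2.45, 1.81 and 2.27 in EVs. For these 3 references every EV ratio lay well below every cell ratio, with mean differences of -1.64, -2.07 and -2.03 on the log2 scale. In the edgeR fit miR-93-5p itself was called higher in EVs (0.46, BH-adjusted p = 0.0351), which widens its ratio difference. miR-25-3p stood at 0.42 (edgeR BH-adjusted p = 0.0558) and miR-191-5p at 0.03 (edgeR BH-adjusted p = 0.924). Those fits use TMM, whereas in CPM all 3 references were higher in every EV library than in any cell library. The mean of miR-191-5p was 3362 CPM in cells and 4760 CPM in EVs, and that of miR-25-3p 3949 and 7317 CPM. On that scale the rise of each reference widens its ratio difference.

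Against miR-24-3p the ratio was 34.1, 14.7 and 18.4 in cells and 8.49, 8.33 and 7.15 in EVs. Against miR-16-5p it was 8.69, 2.34 and 5.04 in cells and 2.00, 1.71 and 2.29 in EVs. The groups still did not overlap, but for miR-16-5p the lowest cell library, replicate 2, came close to the highest EV library. The mean log2 differences were -1.39 and -1.24. miR-24-3p and miR-16-5p themselves stood at -0.22 and -0.41 in the edgeR fit and were not called. Each of these 5 references gave a two-sided exact permutation p of 0.1, the smallest possible, or 0.12 after BH adjustment over 6 ratios.

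The ratio to miR-103-3p overlapped between the groups. It was 9.59, 4.29 and 7.36 in cells and 7.58, 6.93 and 6.93 in EVs, so the EV values lay within the range of the cells (mean log2 difference 0.09, exact permutation p = 0.9). miR-103-3p itself fell by 1.69 in log2 units (BH-adjusted edgeR p = 0.000108). Without Cells replicate 2 the difference was -0.23, so no direction can be given for this ratio.

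**Figure D3:**
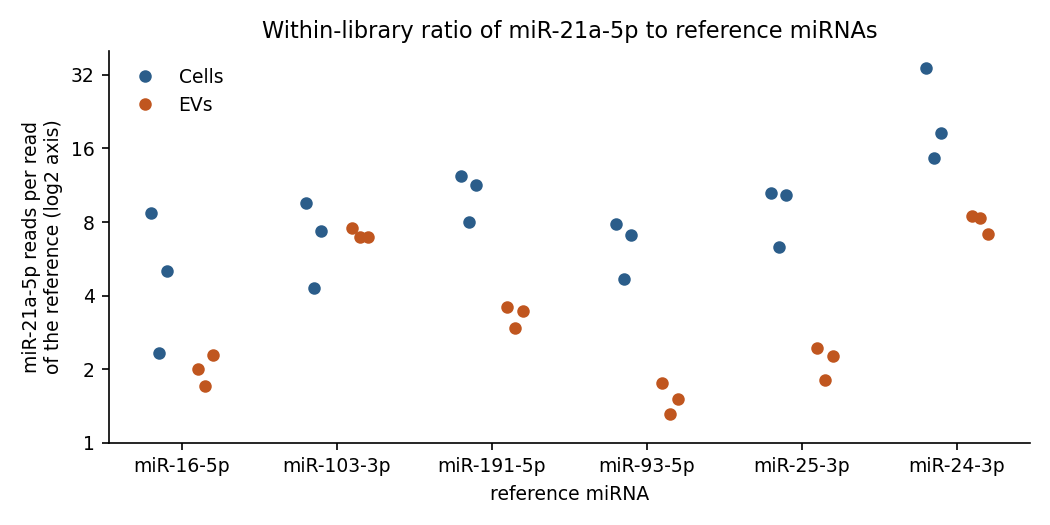
Reads of miR-21a-5p per read of each of 6 reference miRNAs (vertical axis, log2 scale) in cell and EV libraries; each point is a library. The groups are apart for 5 references and overlap for miR-103-3p, where EVs lie at 6.93 to 7.58 and cells at 4.29 to 9.59.

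The same comparison was made with every other tested miRNA as the denominator. Against 229 of 335 (68.4%) the ratio of miR-21a-5p was lower in every EV library than in every cell library. Against 9 it was higher in every EV library, and against 97 the groups overlapped. Over all tested miRNAs the median share of denominators with a lower ratio in every EV library was 20%, and 38 miRNAs had a larger number than miR-21a-5p. These counts share the same 6 libraries and are a description.

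miR-21a-3p was at the edge of detection. It had 3, 2 and 3 reads in cell replicates 1, 2 and 3, which is 19.2, 15.8 and 14.8 CPM. It had 5, 3 and 1 reads in EV replicates 1, 2 and 3, which is 11.6, 9.56 and 1.45 CPM. Every EV library lay below every cell library in CPM, but the 95% exact binomial intervals overlapped, at 3.06 to 43.3 CPM in Cells replicate 3 and 3.77 to 27.1 CPM in EVs replicate 1.

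With reads and totals pooled within a group, 9 of 1434245 EV reads and 8 of 485457 cell reads were miR-21a-3p. The EV share was 0.38 times that of cells, with a 95% exact interval of counting error from 0.13 to 1.13. A fit without the filter on low counts put it at -1.60 in log2 units (SE 0.81), with a BH-adjusted edgeR p of 0.161 over 1015 miRNAs. With rows of a mean of at least 10 CPM in either group it was -1.76 (SE 0.83), with a BH-adjusted edgeR p of 0.0982 over 504 miRNAs. A difference in the 3p strand was not detectable at this depth. The rank of miR-21a-3p was 366, 375 and 399 in cells and 446, 433 and 660 in EVs, out of 560 to 823 rows with any read.

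The 5p strand held nearly all reads of the hairpin in both groups. There were 2125, 1553 and 2840 reads of miR-21a-5p per read of miR-21a-3p in cell replicates 1, 2 and 3. There were 1626, 1269 and 11814 in EV replicates 1, 2 and 3. The last value rests on a single 3p read in EVs replicate 3, and the other EV libraries lie within the range of the cells or just under it.

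Pooled over libraries, the 3p strand made up 0.0444% of the hairpin's reads in cells (95% exact binomial interval 0.0192% to 0.0875%) and 0.0379% in EVs (0.0173% to 0.0719%). The mean of log2(5p/3p), with 0.5 added to each count, was 10.8 ± 0.49 in cells and 11.2 ± 1.54 in EVs (SD, n = 3). The difference was 0.40 (SE 0.73, limma BH-adjusted p = 0.674 over 187 hairpins), with a 95% interval from -1.24 to 2.04. The interval spans changes in both directions. Without EVs replicate 3 the difference was -0.48, so no direction can be given. Summing both strands gave the same fall as the 5p strand alone, 1.65 in log2 units (SE 0.25) with a BH-adjusted edgeR p of 0.000659.

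Among the 187 hairpins with reads to compare, 94 leaned to the 5p strand and 93 to the 3p strand, and miR-21a had the highest log2(5p/3p) in the mean over the 6 libraries. It was second in each group, after miR-218 in cells (11.5 against 10.8) and just after miR-181d in EVs (11.21 against 11.19). Its mean was raised by EVs replicate 3, at 12.94 on a single 3p read, against 10.09 to 11.25 in the rest. With reads pooled within a group, the 5p share of miR-181d was above that of miR-21a. It was 99.969% against 99.962% in EVs and 100% against 99.956% in cells. The hairpins with the nearest ratios were miR-26a, miR-181d, miR-218, let-7i and miR-100, at 9.83 to 10.6 against 10.99 for miR-21a. This order depends on depth, because a hairpin with few reads cannot show so large a ratio. miR-181d and miR-218 had 0 reads of the 3p strand in cells, for example. The ratio was called different between groups for 35.8% of hairpins in the limma fit, and for 154 of 187 the difference was larger in size than that of miR-21a, whose SE was wide. The EV libraries were deeper, and a fixed 0.5 weighs more on a strand with few reads in a shallow library. With the added count scaled to each library's total, 39 hairpins were called in place of 67, and miR-21a stood at 0.11 (limma BH-adjusted p = 0.896).

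**Figure D4:**
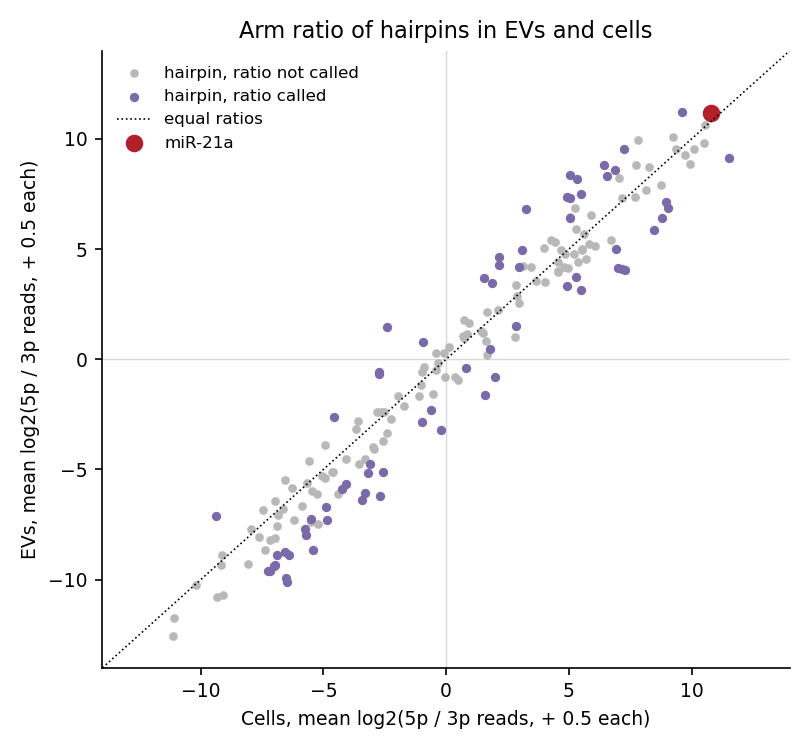
Mean log2 ratio of 5p to 3p reads in EVs (vertical axis) against cells (horizontal axis) for 187 hairpins; the dotted line marks equal ratios and purple points were called by limma. miR-21a lies at the upper right end, at 10.8 in cells and 11.2 in EVs, close to the line.

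The miRNAs whose levels followed miR-21a-5p most closely were found by the Pearson correlation of log2 CPM over the 6 libraries, among the other 255 tested miRNAs whose mean reached 100 CPM. They were miR-425-5p (r = 0.97), miR-744-5p (0.96), miR-222-3p (0.95), miR-330-5p (0.94) and miR-219a-2-3p (0.93). With 6 libraries in 2 groups, such a value reflects mostly the difference between EVs and cells, and the points share library depth. miR-219a-2-3p, from a hairpin that drives oligodendrocyte differentiation, was the most abundant of them, at 23529 ± 5180 CPM in cells and 12816 ± 1457 CPM in EVs (SD, n = 3). miR-222-3p, which is induced in proliferating cells, stood at 676 ± 355 and 246 ± 96.8 CPM. All 5 were called lower in EVs by edgeR, at -2.15 to -0.99 on the log2 scale, where 28.9% of all tested miRNAs were. Their shared direction follows largely from how they were chosen. However, scaling by library size alone ended the call of miR-744-5p (-0.50, edgeR BH-adjusted p = 0.0685).

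miR-21a-5p was then set beside a list of 18 miRNAs known, like it, to rise in injured, inflamed or dividing cells. Of 17 tested members 5 were called higher in EVs and 6 lower, with a median log2 fold change of -0.22 against 0.06 over all 336 tested miRNAs. The background is 28.6% called higher and 28.9% lower, so both counts are near that of all tested miRNAs. With library size only, 7 members were called higher and 2 lower, but calls over all 336 tested miRNAs shifted too, to 148 higher and 60 lower. Without Cells replicate 3 the median of the list was -0.02, against 0.07 over all tested miRNAs.

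The members that fell are given first. miR-155-5p, induced in activated myeloid cells, went from 316 CPM in cells to 68.9 CPM in EVs, a log2 fold change of -2.66 with an SE of 0.56 and a BH-adjusted edgeR p of 0.00341. miR-222-3p fell by 1.98 and its cluster partner miR-221-3p by 1.25. miR-146a-5p, a brake on NF-kB signalling, fell by 1.71, miR-23a-3p by 0.87 and miR-146b-5p by 0.79, and for these and miR-221-3p the BH-adjusted edgeR p lay between 0.0128 and 0.0386. With library size only, miR-155-5p and miR-222-3p were still called and the other 4 were not. miR-146a-5p was also not called when Cells replicate 1 (-1.47) or 3 (-1.50) was left out. miR-23a-3p lost its call when EVs replicate 2 (-0.68), or replicate 1 (-0.94) or 3 (-0.70) of the cells, was left out. For miR-146b-5p this happened with EVs replicate 1 (-0.78) or 2 (-0.74) and with Cells replicate 1 (-0.48) left out.

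The members that rose were miR-132-3p, a miRNA induced by neuronal activity, and 4 from the polycistron of miR-17. miR-19b-3p went from 5813 CPM in cells to 19007 CPM in EVs (log2 fold change 1.29) and miR-132-3p from 4014 to 9885 CPM (0.84). miR-18a-5p rose by 1.30, miR-17-5p by 1.02 and miR-20a-5p by 0.90, and for these 5 the BH-adjusted edgeR p lay between 0.00087 and 0.0058. The polycistron is made as 1 transcript, so these 4 are not independent. The mean level of miR-21a-5p in cells exceeded that of every member. In EVs the mean of miR-19b-3p, 19007 CPM, was above that of miR-21a-5p, 16043 CPM.

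Of the other members, miR-34a-5p (0.42), miR-22-3p (0.10), miR-210-3p (0.01) and miR-24-3p (-0.22) were not called. miR-27a-3p, at -0.80, was not called either (edgeR BH-adjusted p = 0.0613), but it was with the replicate number as a block (-0.79, 0.0206). miR-223-3p, under 100 CPM in both groups, stood at -1.01 (edgeR BH-adjusted p = 0.125). miR-31-5p had too few reads to be tested, with 16 in EVs and 22 in cells.

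**Figure D5:**
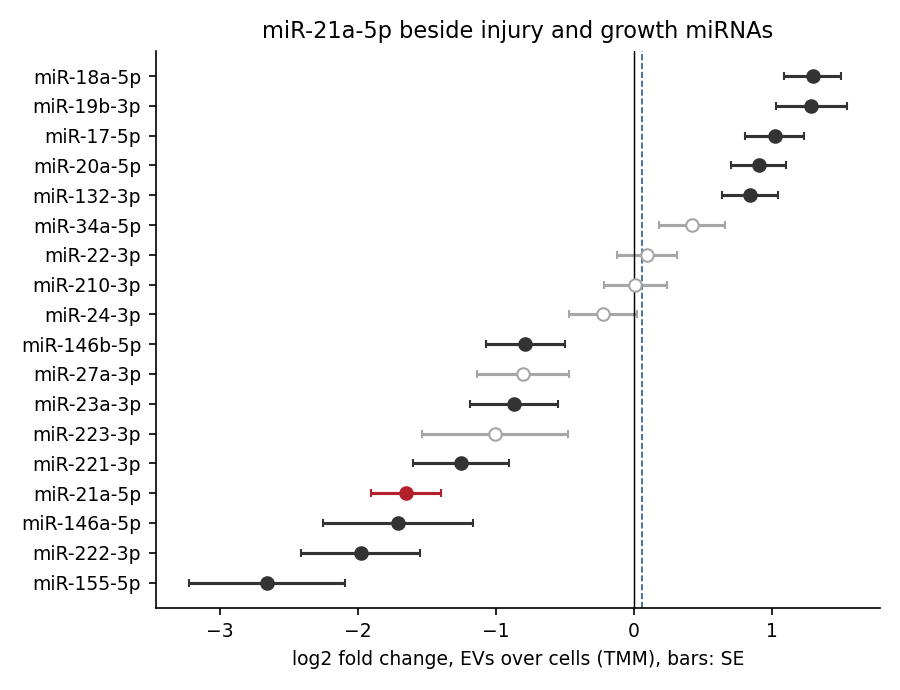
Log2 fold change of EVs over cells (horizontal axis, TMM) with its SE for miR-21a-5p (red) and 17 tested injury and growth miRNAs; filled points passed an adjusted p of 0.05 and the dashed line is the median of all tested miRNAs. miR-21a-5p, at -1.65, lies among the members that fell.

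Markers of cell types were read beside these results, since miR-21 is made by many cells. The oligodendrocyte lineage markers miR-219a, miR-338 and miR-138, 5 rows together, stood at 33961 to 43435 CPM in cells and 33557 to 36111 CPM in EVs, so the defining markers of the labelled cell type were present. Of these rows 3 were called lower in EVs and 2 higher, where 28.9% and 28.6% of all tested miRNAs were. With library size only, 2 were lower, because miR-338-3p (-0.35) lost its call. Just 1 was higher with replicate as a block or when EVs replicate 2 or Cells replicate 2 or 3 was left out. The 5 myeloid markers (miR-155-5p, miR-146a-5p, miR-142a-3p, miR-142a-5p and miR-223-3p) summed to 3425, 1592 and 4566 CPM in cell replicates 1, 2 and 3, and to 1858, 612 and 1936 CPM in EV replicates 1, 2 and 3. Their sum had its lowest library at replicate 2 in each group, as miR-21a-5p did, and so did the sum of the mural and mesenchymal rows below. In cells miR-146a-5p made up most of the myeloid sum, at a mean of 2320 of 3194 CPM. Where 28.9% of all tested miRNAs were called lower in EVs, 4 of the 5 myeloid markers were. That number was 1 with library size only or without Cells replicate 3, and 2 without Cells replicate 1. None of them was at 0 in the cells, where each had at least 42 reads over the 3 libraries. Their part in the level of miR-21a-5p was not tested.

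Other marker groups moved the opposite way from miR-21a-5p. Over all tested miRNAs 28.6% were called higher in EVs. The 4 neuronal rows (miR-124-3p, miR-128-3p, miR-137-3p and miR-129-5p) summed to 53621, 37854 and 40270 CPM in cell replicates 1, 2 and 3. In each of these libraries that was above the sum of the oligodendrocyte lineage rows, at 43435, 33961 and 36361 CPM. Each sum was mostly a single row, so this order compares chiefly 2 miRNAs. In cells miR-128-3p made up a mean of 31365 of 43915 CPM of the neuronal sum. miR-219a-2-3p made up 23529 of 37919 CPM of the oligodendrocyte lineage sum. In EVs the neuronal rows summed to 93683 to 122929 CPM, with 3 called higher. That number was 0 when EVs replicate 1 was left out and 1 when EVs replicate 2 or Cells replicate 2 or 3 was. The 4 mural and mesenchymal rows (miR-143-3p, miR-145a-5p, miR-199a-3p and miR-214-3p) summed to 362 to 1037 CPM in cells and 2473 to 4807 CPM in EVs, with 3 of 3 tested called higher. The 3 erythroid rows (miR-451a, miR-144-3p and miR-486a-5p) summed to 212 to 256 CPM in cells and 3944 to 7835 CPM in EVs, with 2 of 2 tested called higher. Liver miR-122-5p stood at 24.7 to 47.3 CPM in cells and 4194 to 8316 CPM in EVs. CPM values in a library sum to a fixed total, so a rise of these rows lowers the share left to all others, and their part in the fall of miR-21a-5p was not tested. Less of a miRNA per vesicle or cell and fewer vesicles or cells that carry it cannot be told apart in such libraries.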

How the data were processed

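The authors deposited raw counts of reads per mature miRNA, 1 table per library and 1906 rows each. The submitters' processing notes name the mouse build NCBIM37 (mm9) and the tools featureCounts 1.4.6-p4 (Subread), Bowtie 0.12.8, cutadapt 1.7.1 and bcl2fastq 1.8.4. How these were set, how reads with several matches and strand were treated, and the miRNA release: not given in the sources used here. Per the labels' protocols, RNA of 15 to 200 nt was sequenced after 14 PCR cycles, with 4 random bases in each adapter. No source used here says whether those bases removed duplicates.

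Total counts were 313766 to 689475 in EV libraries and 126910 to 202358 in cell libraries, so 1 read was worth 1.45 to 3.19 CPM and 4.94 to 7.88 CPM. Libraries of a group differed by more than sampling noise (chi-square per degree of freedom 7.73 to 37.5), so no library repeats another.

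EVs were compared with cells by edgeR 4.0.16 (glmQLFit and glmQLFTest, two-sided, TMM, filterByExpr at a minimum count of 10, group as the only term; R 4.3.3), with BH adjustment over 336 miRNAs and calls at 0.05. Arm ratios were tested by limma 3.58.1 on the log2 ratio of 5p to 3p reads, each plus 0.5, for 187 hairpins whose arms together reached 10 reads in every library, with reads of genomic copies summed. Single values were compared by exact permutation tests. Both fits were tested on simulated counts with known changes, where the arm fit with a fixed pseudocount made more false calls than that with a scaled one, all on hairpins with few reads of 1 arm.

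Deviations from the group mean correlated between EV and cell libraries with the same number (r = 0.115, 0.106 and 0.256 over 336 miRNAs), and libraries with different numbers correlated at -0.148 to 0.021. Deviations from a group mean cancel out within the group, so these correlations are not independent of each other. They were small and do not establish that libraries with the same number belong together. The numbers are from the labels, which do not state a pairing. The fit with the replicate number as a block is therefore given only as an alternative.

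Besides both strands, the miRNAs named were those sharing a seed, the neighbours in rank, the 5 most correlated miRNAs, the 5 nearest arm ratios, 6 references, list members above 100 CPM and cell type markers. miR-21b and the other top miRNAs that fell more were named after their values were seen, as were list members under 100 CPM. The members and lists were chosen with earlier results of these data known. Of 1906 rows, 1622 matched a name in the RefSeq table.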

Additional observations from a re-analysis of the deposited data

How the results depend on the processing

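The fall of miR-21a-5p kept its direction and its call in all 15 alternatives, at -1.89 to -1.16 on the log2 scale (BH-adjusted p from 4.1e-11 to 0.00453). With the replicate block, which adds the replicate number as a term, it was -1.61 (edgeR BH-adjusted p = 0.000813), with DESeq2 1.42.0 -1.70, and after thinning to the smallest library -1.72. Of the results tested with the replicate block, including the summed strands (-1.61) and the arm ratio (0.40), none of the named miRNAs changed its call except miR-27a-3p, which gained it, and the marker miR-219a-5p (0.75, edgeR BH-adjusted p = 0.0535) and the reference miR-93-5p (0.46, 0.0692), which lost it. Without 1 library the log2 fold change of miR-21a-5p was -1.89 to -1.47, the difference in its share -2.54 to -1.66 percentage points, and the pooled ratio of miR-21a-3p 0.24 to 0.65. The arm ratio of miR-21a lay between -0.48 (without EVs replicate 3) and 0.95 when 1 library was left out, called in no case. The ratio to miR-103-3p lay between -0.23 (without Cells replicate 2) and 0.35. With library size only, 2 list members were lower in place of 6, and 71.2% of all called miRNAs were higher in EVs in place of 49.7%. Hairpins with a called arm ratio numbered 67, but 37 with a pseudocount of 0.1, 40 with at least 50 reads, 39 with the pseudocount scaled to the library total (an alternative chosen after seeing the data, as was leaving out miR-9-5p), and 36 to 60 without 1 library. miR-21a-3p, with 17 reads in all, gave a fitted fold change only without the filter (-1.60) and with the filter at a mean of 10 CPM (-1.76), and was called in neither. Its depth, not the number of 5p reads, limits the arm ratio.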
